A study of Rattus norvegicus with 9 samples.

Results

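The genes that load, dock, fuse and recycle synaptic vesicles were followed through 9 RNA-seq libraries of rat primary hippocampal neurons. They were taken from a list of 37 gene symbols, and 36 of these symbols were found among the 34092 genes of the deposited table. All 36 passed the filter on low values and were among the 15958 genes tested. The 36 genes were set in 6 groups by role: 9 vesicle proteins, 7 calcium sensors and related vesicle regulators, 7 SNARE and fusion genes, 8 active zone genes, 3 endocytosis genes and 2 vesicular glutamate transporters. The remaining symbol, Sv2b, did not occur as a gene name in the table.

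The neurons came from the hippocampi of wild-type (WT) rat fetuses at embryonic day 17, and were grown without mitotic inhibitors until 7 days in vitro. The 9 libraries fell into groups of 3. The first group was labelled Control and is called vehicle here. The others were neurons given 1 nM human aminoprocalcitonin (NPCT, the amino-terminal part of procalcitonin) and neurons given 1 nM human procalcitonin (PCT). Each peptide was given for 24 h, and the RNA-seq methods do not say what the control neurons received. Both peptides were human and were added to rat cells, and the series compared them at this single dose and time to see what each did to the neuronal transcriptome. The methods speak of pooled samples of biological triplicates while the labels number 3 replicates per group, so the p-values here measure the spread between these libraries, which may be technical.

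At a presynaptic terminal, transporters fill vesicles with transmitter, and the vesicles are tethered and primed at the active zone, a protein scaffold facing the synaptic cleft. When calcium enters, synaptotagmins and related sensors trigger fusion by the SNARE complex, formed of a vesicle synaptobrevin, syntaxin and SNAP-25, and the membrane is then recovered by endocytosis. Neurons of the hippocampus are mostly glutamatergic, and immature cultured neurons build up this machinery as axons form synapses.

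The libraries held 13573056 to 17211642 fragments on genes, and each of the 36 genes was read from 166 to 14574 fragments in every library. All values are FPKM, fragment counts scaled to gene length and to the library's fragments, so levels can be compared between genes. The 36 genes together took 0.682 to 0.775% of the fragments of a library. Replicate libraries differed by more than sampling noise in every pair, with a chi-square per degree of freedom of 4.16 to 4.97 between vehicle libraries. PCT replicate 3 stood apart from PCT replicates 1 and 2 (21.6 and 18.9, against 6.38 between those libraries), and NPCT replicate 3 stood apart from NPCT replicates 1 and 2 (10.6 and 10.8, against 4.38).

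The order of the levels ran from Vamp2 at 261 FPKM, as the mean of all 9 libraries, to Rims2 at 3.47 FPKM. There were 10 genes with a mean above 100 FPKM, namely Vamp2, Syp, Syt11, Syt4, Cplx2, Syn1, Slc17a7, Syt1, Snap25 and Dnm1. Group means under 100 FPKM were those of Syt1 and Snap25 with NPCT (99.4 and 90.8) and Slc17a7 and Dnm1 with PCT (96.6 and 94.5). The order also differed by group: Slc17a7 was below Syt1 with vehicle (114 against 122 FPKM) and above it with NPCT (139 against 99.4). There were 4 genes below 10 FPKM, namely Vamp1, Sv2c, Unc13b and Rims2. Neighbours in this order often did not differ beyond their spread: Syn1, at 101 to 141 FPKM, overlapped both Cplx2, at 92.6 to 142 FPKM, and Slc17a7, at 91.4 to 146 FPKM.

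A gene was called changed when limma's adjusted p was at most 0.05 and the fold change was above 1.5, the thresholds of the study's methods. With NPCT against vehicle, 0.219% of all genes tested passed both thresholds (0.15% higher and 0.0689% lower), and 0 of the 36 did by limma. Limma-voom on the fragments recovered from the FPKM called 2.22% of all genes and also 0 of the 36. On the adjusted p alone, which 0.47% of all genes passed (0.269% higher, 0.201% lower), 1 of the 36 passed, Syt4, which was lower; by limma-voom 5 of the 36 and 9.49% of all genes passed. At an unadjusted p below 0.05, reached by 29.3% of all genes, the count was 13, of which 4 were higher (Slc17a7, Amph, Rab3a and Unc13a) and 9 lower (Syt4, Syt1, Snap25, Nsf, Syn1, Syn2, Syn3, Pclo and Slc17a6). The share of all genes on each side was 14.4% higher and 14.9% lower. The 3 NPCT libraries lay wholly outside the range of the 3 vehicle libraries for 21 of the 36 genes, 8 above and 13 below, against 40.3% of all genes tested (20% above and 20.3% below). Log2 fold changes were above 0 for 17 of the 36 genes and for 50.8% of all genes, with medians of -0.03 and 0.01.

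With PCT against vehicle, 2.31% of all genes passed both thresholds (0.589% higher and 1.72% lower), and 0 of the 36 did, by limma and by limma-voom (2.43% of all genes). On the adjusted p alone 0 of the 36 passed by limma and 1 by limma-voom, against 4.2% of all genes by limma (1.75% higher and 2.46% lower) and 4.93% by limma-voom. An unadjusted p below 0.05 was reached by 7 genes, against 18.9% of all genes (10.1% higher and 8.79% lower): Rab3a was higher, and Syn1, Syn2, Syt11, Rims1, Dnm1 and Slc17a7 were lower. Groups did not overlap for 7 genes, 1 above and 6 below, against 24.9% of all genes (13.1% above and 11.9% below). Log2 fold changes were above 0 for 10 of the 36 genes and for 51.0% of all genes, with medians of -0.08 and 0.005. Both comparisons use the same 3 vehicle libraries, so their values are set side by side and not counted as separate evidence.

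The direct comparison of NPCT with PCT, at the same dose and time, asked whether the fragment and the whole peptide left different levels. Both thresholds were passed by 5.76% of all genes (4.38% higher and 1.38% lower) and by 0 of the 36, and limma-voom again called 0, beside 5.88% of all genes. On the adjusted p alone, which 16.3% of all genes passed (7.97% higher and 8.32% lower), 6 of the 36 differed: Slc17a7, Unc13a and Syt7 were higher with NPCT than with PCT, and Syt4, Syn3 and Slc17a6 were lower. At an unadjusted p below 0.05 (33.1% of all genes, 15.6% higher and 17.5% lower) the count was 11, 6 higher and 5 lower, which added Cplx2, Stx1a and Syngr1 to the higher genes and Syt1 and Snap25 to the lower ones. Groups did not overlap for 10 genes, 5 in each direction, against 33.4% of all genes (15.4% above and 18.0% below). Log2 fold changes were above 0 for 22 of the 36 genes and for 48.9% of all genes. The 6 of 36 genes past the adjusted p are near the share of all genes, and each is given below with its values.

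**Figure D1:**
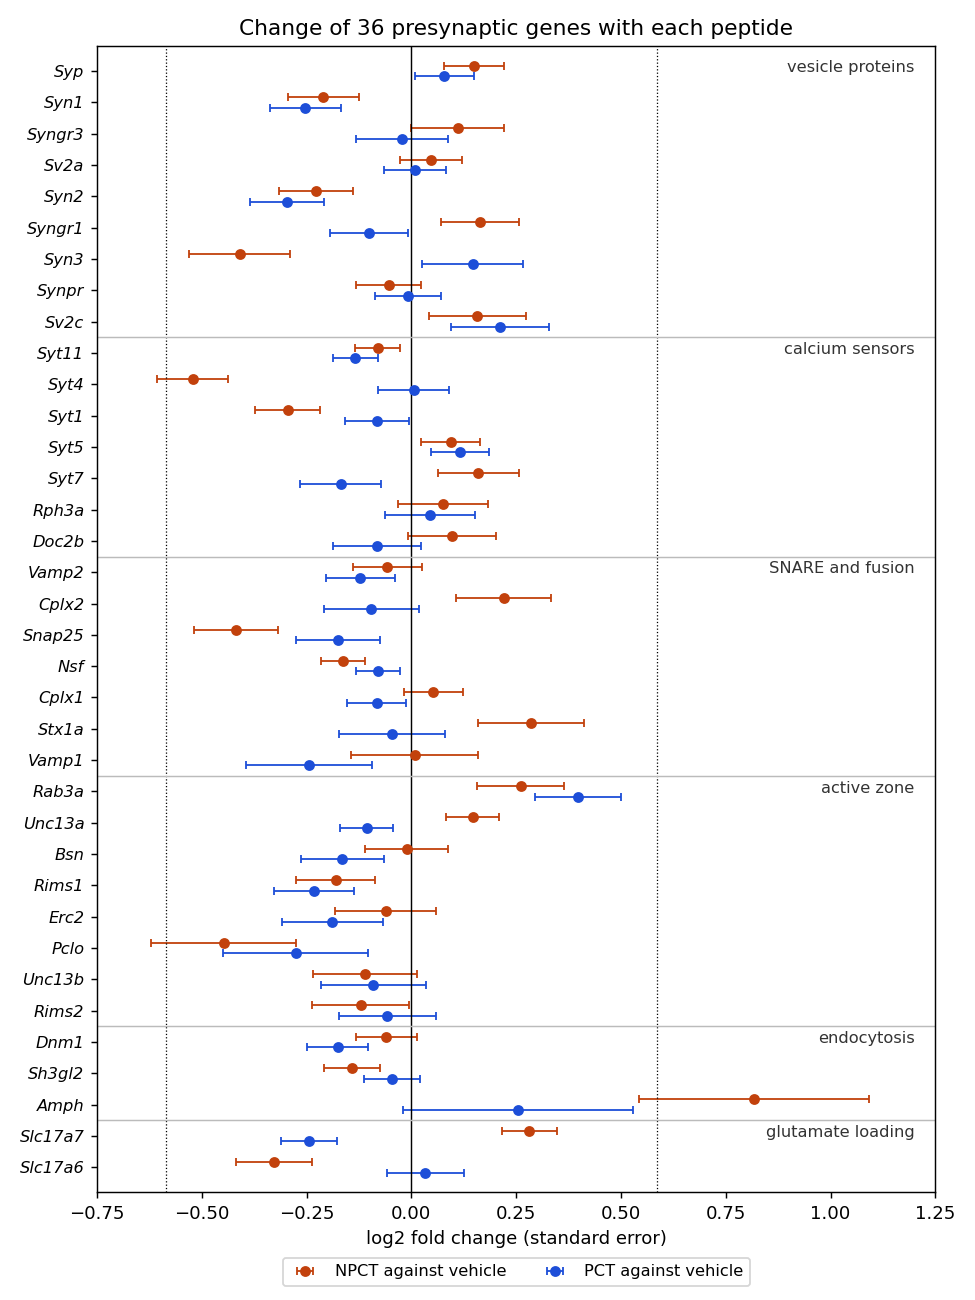
Log2 fold change (x axis) of each of the 36 genes (y axis, grouped by role and ordered by level) with NPCT (orange) and PCT (blue) against vehicle, each from 3 libraries per group; bars are standard errors of the limma fit and dotted lines mark a 1.5-fold change. Points lie between -0.52 for Syt4 and 0.82 for Amph, both with NPCT, and Amph with NPCT is the only one beyond a dotted line.

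The transporters that load vesicles with glutamate both differed between the peptides, and Slc17a7 had the smallest adjusted p of the 36 genes there. Slc17a7 encodes VGLUT1, the transporter typical of mature cortical and hippocampal excitatory neurons, and Slc17a6 encodes VGLUT2, which is prominent in subcortical and immature excitatory neurons. Slc17a7 (ENSRNOG00000020650, Rnor_6.0 chr1:101161252-101173174) stood at 111, 115 and 117 FPKM with vehicle, 144, 128 and 146 FPKM with NPCT and 99.1, 91.4 and 99.2 FPKM with PCT. Every NPCT library lay above, and every PCT library below, all 3 vehicle libraries. The means were 114 ± 2.67 FPKM with vehicle, 139 ± 9.99 with NPCT and 96.6 ± 4.47 with PCT (SD, n = 3 each). Against vehicle the log2 fold change was 0.28 ± 0.07 (SE) with NPCT, adjusted p = 0.0539 by limma (range over the alternatives 0.0181 to 0.169). With PCT it was -0.24 ± 0.07, adjusted p = 0.0774 by limma (range over the alternatives 0.021 to 0.217). Neither passed in the main fit, and each was under 0.05 in at least 1 alternative. NPCT against PCT gave 0.53 ± 0.07, a 1.44-fold difference in level, with an adjusted p = 0.00257 by limma (range over the alternatives 0.000616 to 0.0241).

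Slc17a6 (ENSRNOG00000016147, Rnor_6.0 chr1:106998623-107038704) was the less abundant transporter gene, at 10.03, 11.4 and 11.1 FPKM with vehicle, 8.67, 9.15 and 8.01 with NPCT and 11.2, 11.9 and 10.1 with PCT. All NPCT libraries were below all others, and the vehicle and PCT libraries overlapped. Slc17a6 had a log2 fold change of -0.33 ± 0.09 with NPCT against vehicle (adjusted p = 0.0661 by limma), 0.03 ± 0.09 with PCT against vehicle (adjusted p = 0.893) and -0.36 ± 0.09 with NPCT against PCT (adjusted p = 0.0308, range over the alternatives 0.0111 to 0.102). The pair of transporter genes therefore differed between the peptides in opposite directions, VGLUT1 higher and VGLUT2 lower with NPCT.

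Because these transporter genes and Unc13a, a priming gene described below, carried differences between the peptides, their promoters are shown together with that of Syn1, the vesicle protein gene whose promoter held a full cAMP response element. The windows run from 250 bases before to 50 bases after the start site in RefSeq, build GRCr8, 5′ to 3′ on the strand of the gene, and capitals mark every match to the motifs named after them. They lie at chr1:104785955-104786254 (plus strand) for Slc17a7, chr1:110348197-110348496 (plus strand) for Slc17a6, chr16:18415737-18416036 (minus strand) for Unc13a and chrX:3725495-3725794 (plus strand) for Syn1.
Slc17a7: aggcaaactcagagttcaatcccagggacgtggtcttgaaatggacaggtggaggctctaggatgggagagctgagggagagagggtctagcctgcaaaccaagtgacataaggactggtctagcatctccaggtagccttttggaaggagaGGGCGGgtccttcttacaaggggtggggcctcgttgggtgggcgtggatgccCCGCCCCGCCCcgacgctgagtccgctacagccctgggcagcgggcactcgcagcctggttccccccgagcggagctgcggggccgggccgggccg
Slc17a6: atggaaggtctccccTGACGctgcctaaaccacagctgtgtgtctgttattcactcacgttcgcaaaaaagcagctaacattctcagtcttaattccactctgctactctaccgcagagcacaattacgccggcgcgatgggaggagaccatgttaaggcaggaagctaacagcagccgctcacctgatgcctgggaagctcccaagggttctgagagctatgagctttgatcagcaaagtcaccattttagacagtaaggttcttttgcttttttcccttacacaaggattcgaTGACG
Unc13a: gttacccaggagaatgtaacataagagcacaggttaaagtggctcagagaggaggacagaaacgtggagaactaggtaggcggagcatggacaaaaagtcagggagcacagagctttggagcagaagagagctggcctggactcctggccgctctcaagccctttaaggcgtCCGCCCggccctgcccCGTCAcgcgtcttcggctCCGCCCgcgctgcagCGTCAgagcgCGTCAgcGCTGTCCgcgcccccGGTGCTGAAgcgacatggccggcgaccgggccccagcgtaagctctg
Syn1: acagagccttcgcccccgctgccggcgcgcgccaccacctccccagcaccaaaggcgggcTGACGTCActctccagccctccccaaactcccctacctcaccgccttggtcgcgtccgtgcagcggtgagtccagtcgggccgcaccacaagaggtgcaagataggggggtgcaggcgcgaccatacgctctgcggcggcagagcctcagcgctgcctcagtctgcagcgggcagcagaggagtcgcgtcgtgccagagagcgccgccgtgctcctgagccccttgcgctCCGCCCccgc

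The 6 strings named here were searched on both strands in the windows of 28 of the 36 genes; Unc13b had more than 1 window and the first was used, and Syn3, Syngr1, Syngr3, Syt5, Syt7, Doc2b, Snap25 and Rims2 were not matched to a window. The cAMP response element TGACGTCA occurred in 3 of the 28, Syn1, Vamp1 and Sh3gl2, and in 1.83% of all 33469 windows of 300 bases. In Syn1 it covers bases 61 to 68 of the window, counted from 1 at the 5′ end. The short form TGACG, which lies inside TGACGTCA on both strands, occurred in 11 of the 28 (39.3%) and in 21.2% of all windows. Slc17a6 held it at bases 16 to 20 and 296 to 300, and Unc13a on the opposite strand at bases 189 to 193, 222 to 226 and 232 to 236. The GC box GGGCGG occurred in 21 of the 28 (75%) and in 33.1% of all windows, and Slc17a7 held 3 copies, at bases 153 to 158, 205 to 210 and 210 to 215, while Slc17a6 held none. TATAAA occurred in 0 of the 28 and in 14.2% of all windows. Of the RE1 element bound by the repressor REST, the left part TTCAGCACC was found in Unc13a, at bases 254 to 262 on the opposite strand, and in 0.356% of all windows. The right part GGACAGC was found in Unc13a (bases 239 to 245, opposite strand), Pclo and Rph3a and in 6.59% of all windows. These are matches of letters, and binding was not measured.

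**Figure D2:**
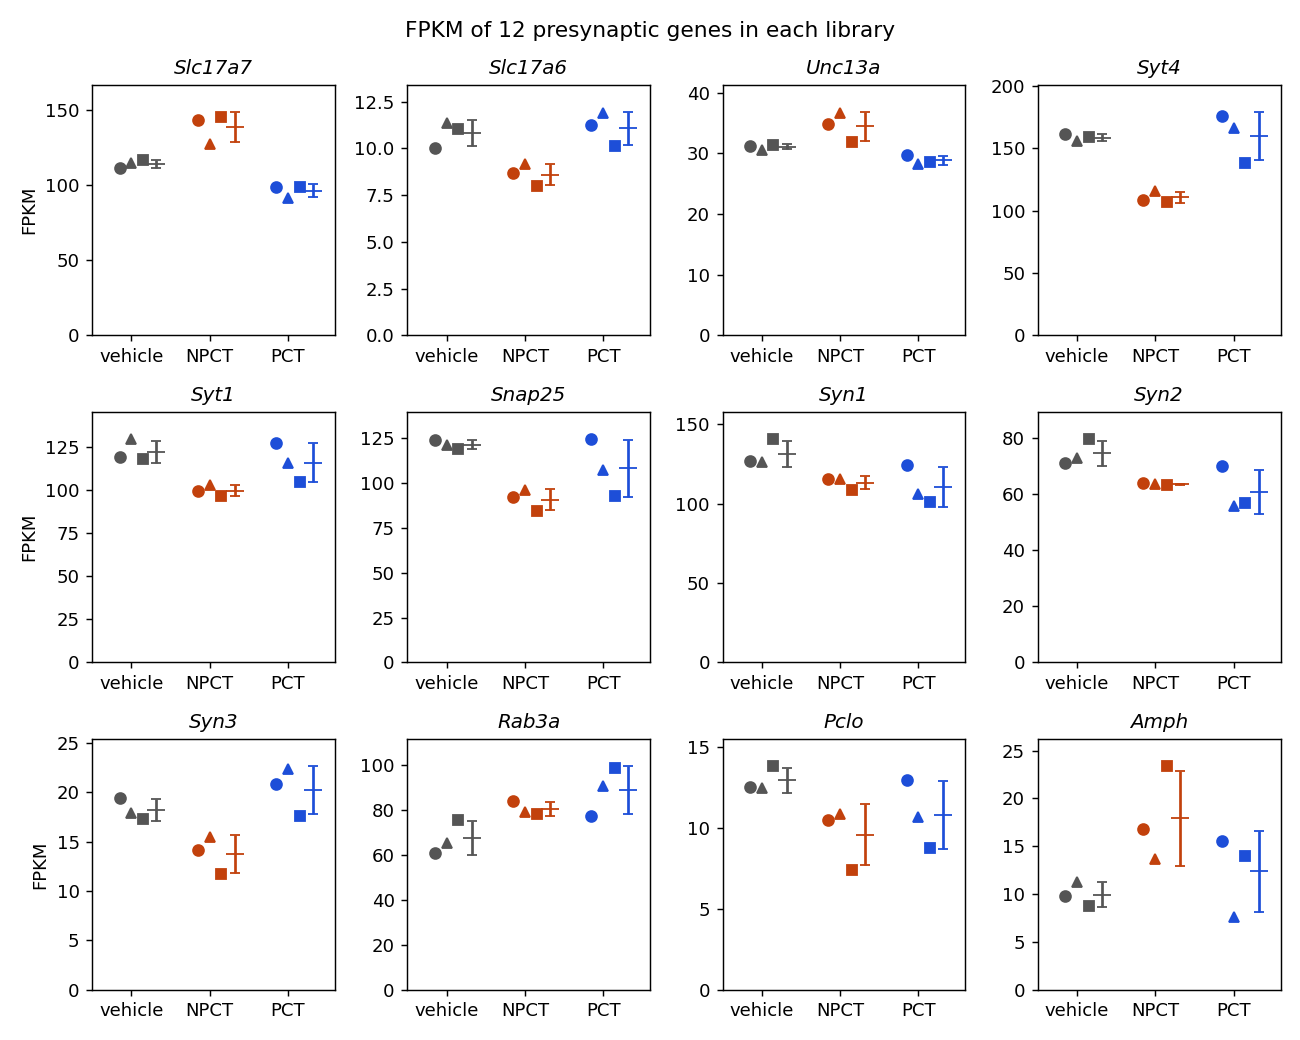
FPKM (y axis, linear and from 0) of 12 of the genes in each library of the vehicle (grey), NPCT (orange) and PCT (blue) groups (x axis); circles, triangles and squares are replicates 1, 2 and 3, and the bar beside them is the mean with its SD (n = 3). Slc17a7 and Unc13a lie above vehicle in all NPCT libraries and below it in all PCT libraries, Syt4 is low in the NPCT libraries alone, and Amph spreads from 7.60 to 23.4 FPKM.

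Among the calcium sensors, Syt4 showed the largest difference of the group with NPCT. Syt4 is a synaptotagmin of vesicles and dense core vesicles that binds calcium poorly and is induced by neuronal activity. Syt4 (ENSRNOG00000017333, Rnor_6.0 chr18:24172587-24182012) stood at 161, 155 and 159 FPKM with vehicle, 109, 116 and 107 FPKM with NPCT and 175, 166 and 138 FPKM with PCT. The 3 NPCT libraries were lower than the other 6, and the PCT libraries spread on both sides of the vehicle libraries. The log2 fold change with NPCT against vehicle was -0.52 ± 0.08, which is 1.44-fold lower, with an adjusted p = 0.0493 by limma (range over the alternatives 0.00232 to 0.169). That p is at the threshold: it was above 0.05 without any 1 of the vehicle libraries, any 1 of the NPCT libraries or PCT replicate 2, with no filter on low values and with scaling to total fragments. NPCT against PCT gave -0.53 ± 0.08 with an adjusted p = 0.00662 by limma (range over the alternatives 0.000437 to 0.0386), and PCT against vehicle 0.01 ± 0.08 (adjusted p = 0.985).

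Syt1, the main fast calcium sensor of forebrain synapses, stood at 119, 129 and 118 FPKM with vehicle, 99.3, 103 and 96.2 with NPCT and 127, 115 and 104 with PCT. All NPCT libraries were below all vehicle and PCT libraries, with a log2 fold change of -0.30 ± 0.08 against vehicle that missed the threshold (adjusted p = 0.0598 by limma, range over the alternatives 0.0122 to 0.187). Syt7, a slow sensor of high calcium affinity tied to asynchronous release, stood at 33.4, 33.0 and 36.5 FPKM with vehicle, 41.6, 40.4 and 33.5 with NPCT and 30.3, 28.1 and 33.2 with PCT. NPCT and PCT libraries of Syt7 did not overlap, NPCT replicate 3 being close to the highest PCT library, and the log2 fold change between them was 0.33 ± 0.10 (adjusted p = 0.0497 by limma, range over the alternatives 0.0203 to 0.156).

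Syt11, a synaptotagmin that does not bind calcium, was the most abundant gene of the group, at 211, 211 and 214 FPKM with vehicle, 201, 198 and 202 with NPCT and 203, 182 and 195 with PCT. Both peptide groups lay below all vehicle libraries by little, with log2 fold changes of -0.08 ± 0.05 with NPCT (adjusted p = 0.349 by limma), which turned to 0.01 with the gene length trend removed, and -0.13 ± 0.05 with PCT (adjusted p = 0.218). Syt5, a further vesicle synaptotagmin, had a mean of 74.8 FPKM over the 9 libraries, Rph3a, the rabphilin that binds Rab3, 28.3 FPKM, and Doc2b, a sensor tied to spontaneous release, 11.3 FPKM. For these 3 genes the libraries of all groups overlapped, and the log2 fold changes against vehicle lay between -0.08 for Doc2b with PCT and 0.12 for Syt5 with PCT. Within the group, 3 of 7 genes were below vehicle in all NPCT libraries, Syt1, Syt4 and Syt11, and 0 were above, beside 20.3% of all genes below and 20% above.

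The vesicle proteins were led by Syp, which encodes synaptophysin, an abundant integral protein of the vesicle membrane. Syp stood at 210.4, 221 and 236 FPKM with vehicle, 247, 239 and 254 with NPCT and 227, 222 and 256 with PCT. The NPCT libraries were all above the vehicle libraries and the PCT libraries overlapped both groups, and neither log2 fold change passed, 0.15 ± 0.07 with NPCT (adjusted p = 0.195 by limma) and 0.08 ± 0.07 with PCT (adjusted p = 0.617). The synapsins, which tie vesicles to each other and to actin in the reserve pool, did not all differ alike. Syn1 stood at 127, 126 and 141 FPKM with vehicle, 115, 116 and 109 with NPCT and 125, 106 and 101 with PCT, and Syn2 at 71.2, 72.9 and 79.8 FPKM with vehicle, 63.9, 63.6 and 63.3 with NPCT and 70.0, 55.8 and 57.0 with PCT.

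For both genes all libraries of both peptides lay below all vehicle libraries, and PCT replicate 1 was the PCT library closest to vehicle. The log2 fold changes of Syn1 were -0.21 ± 0.08 with NPCT and -0.25 ± 0.08 with PCT (adjusted p = 0.139 and 0.143 by limma). Those of Syn2 were -0.23 ± 0.09 and -0.30 ± 0.09 (adjusted p = 0.128 and 0.103, range over the alternatives with PCT 0.0183 to 0.284). Syn3, the synapsin of developing neurons, at a mean of 17.4 FPKM beside 66.4 FPKM for Syn2, showed another pattern. Its FPKM was 19.4, 17.9 and 17.3 with vehicle, 14.2, 15.5 and 11.7 with NPCT and 20.8, 22.3 and 17.6 with PCT. All NPCT libraries of Syn3 lay below the other 6, and the PCT libraries overlapped the vehicle ones with 2 of them higher. The log2 fold change of Syn3 was -0.56 ± 0.12 with NPCT against PCT (adjusted p = 0.0189 by limma, range over the alternatives 0.00526 to 0.0662) and -0.41 ± 0.12 with NPCT against vehicle (adjusted p = 0.0732).

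The tetraspan vesicle proteins related to synaptophysin had mean levels of 81.4 FPKM for Syngr3, 60.2 FPKM for Syngr1 and 14.9 FPKM for Synpr, which encodes synaptoporin. Their log2 fold changes against vehicle ran from -0.10 for Syngr1 with PCT to 0.16 for Syngr1 with NPCT, and of these only the NPCT libraries of Syngr3 lay clear of the vehicle libraries. The SV2 proteins, vesicle glycoproteins of which SV2A binds levetiracetam, had means of 68.0 FPKM for Sv2a and 4.85 FPKM for Sv2c, and log2 fold changes between 0.01 and 0.21. Libraries of all groups overlapped for both.

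The SNARE and fusion genes held the most abundant gene of the set, Vamp2, which encodes the vesicle SNARE synaptobrevin 2. Vamp2 stood at 267, 279.9 and 267 FPKM with vehicle, 258, 258 and 266 with NPCT and 281, 221 and 249 with PCT. The NPCT libraries lay just below the vehicle ones and the PCT libraries spread from below to above both, with log2 fold changes of -0.06 ± 0.08 and -0.12 ± 0.08 (adjusted p = 0.677 and 0.483 by limma). Snap25, the SNARE of the plasma membrane that botulinum toxin A cuts, stood at 124, 121 and 119 FPKM with vehicle, 92.2, 96.0 and 84.4 with NPCT and 125, 107 and 92.8 with PCT. The NPCT libraries were below all vehicle libraries, and the PCT libraries ran from the top vehicle value down into the NPCT range. Snap25 had a log2 fold change of -0.42 ± 0.10 with NPCT (adjusted p = 0.0541 by limma, range over the alternatives 0.00744 to 0.169). With PCT it was -0.17 ± 0.10 (adjusted p = 0.390 by limma), and ran from -0.28 to -0.07 on leaving out libraries.

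Stx1a, the plasma membrane syntaxin that pairs with SNAP-25, stood at 59.4, 60.01 and 70.6 FPKM with vehicle, 78.4, 74.1 and 78.4 with NPCT and 59.2, 51.7 and 74.9 with PCT. Its NPCT libraries were above all vehicle libraries, where those of Snap25 were below, and the PCT libraries spread from below the vehicle range to within the NPCT range, replicate 2 being the lowest and replicate 3 the highest of them. Stx1a had a log2 fold change of 0.28 ± 0.13 with NPCT (adjusted p = 0.172 by limma, range over the alternatives 0.0394 to 0.366). With PCT it was -0.05 ± 0.13 (adjusted p = 0.895 by limma), and ran from -0.19 to 0.08 on leaving out libraries. Complexins clamp and then promote the assembled SNARE complex, and Cplx2 was the more abundant of the pair. Cplx2 stood at 115, 118 and 125 FPKM with vehicle, 142, 135 and 139.6 with NPCT and 113, 92.6 and 133 with PCT. All NPCT libraries were above all others, and PCT replicate 2 was the lowest of the 9. Cplx2 gave a log2 fold change of 0.22 ± 0.11 with NPCT against vehicle (adjusted p = 0.226 by limma) and 0.32 ± 0.11 with NPCT against PCT (adjusted p = 0.0882, range over the alternatives 0.00594 to 0.201), the latter being 0.18 without PCT replicate 2.

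Nsf, the ATPase that takes spent SNARE complexes apart, stood at 98.0, 101 and 99.3 FPKM with vehicle, 87.9, 88.5 and 89.5 with NPCT and 99.4, 93.0 and 89.6 with PCT. Its NPCT libraries were tightly grouped below all others, with a log2 fold change of -0.16 ± 0.05 against vehicle (adjusted p = 0.0859 by limma). Cplx1 had a mean of 79.3 FPKM, and Vamp1, the synaptobrevin typical of hindbrain and spinal cord, 6.37 FPKM. For both genes each peptide group overlapped vehicle, at log2 fold changes from -0.24 to 0.05. All 7 genes of the group had a log2 fold change below 0 with PCT, from -0.24 for Vamp1 to -0.05 for Stx1a. Of these genes 0 of 7 reached an unadjusted p below 0.05 there. Leaving out single libraries gave -0.34 to -0.08 for Vamp1, -0.19 to 0.08 for Stx1a and -0.22 to 0.04 for Cplx2. The shared direction therefore did not hold in every such fit. With all genes tested, 51.0% had a log2 fold change above 0 with PCT.

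**Figure D3:**
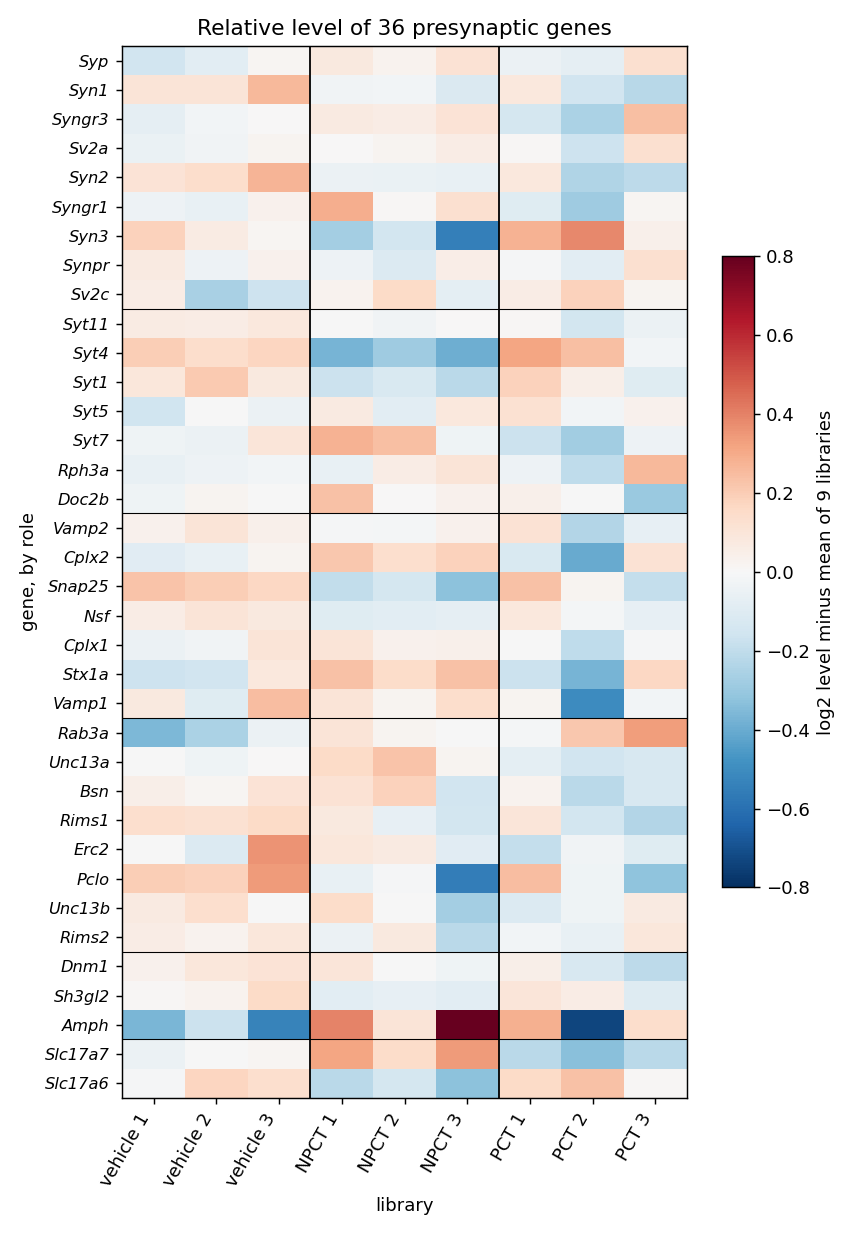
Log2 level of each of the 36 genes (y axis, by role) in each library (x axis) as colour, relative to the mean of that gene over the 9 libraries, from blue (lower) to red (higher) on a scale of log2 units. All 3 NPCT columns are blue for Syt4, Syn3, Snap25 and Slc17a6 and red for Slc17a7, Stx1a and Cplx2, and the column of PCT replicate 2 is mostly blue.

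Across the 36 genes PCT replicate 2 was the lowest library: its median log2 level relative to the mean of each gene was -0.14, against -0.02 to 0.08 in the other 8 libraries. The share of its fragments on the 36 genes, 0.682%, was also the lowest of the 9. Vehicle replicate 3 was the highest, at 0.08 and 0.775%.

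At the active zone, Rab3a, the vesicle GTPase that docks vesicles through RIM, was the most abundant gene. Rab3a stood at 60.9, 65.4 and 75.6 FPKM with vehicle, 84.0, 79.2 and 77.9 with NPCT and 77.3, 90.6 and 98.4 with PCT. Libraries of both peptides were above all vehicle libraries, and the vehicle libraries themselves spread widely. It had a log2 fold change of 0.26 ± 0.10 with NPCT (adjusted p = 0.134 by limma) and 0.40 ± 0.10 with PCT (adjusted p = 0.0695, range over the alternatives 0.0331 to 0.231). Rab3a was the gene of the 36 with the smallest adjusted p for PCT against vehicle.

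Unc13a encodes Munc13-1, which primes vesicles by opening syntaxin and is needed for release at most excitatory hippocampal synapses. Unc13a (ENSRNOG00000018452, Rnor_6.0 chr16:20056765-20097287) stood at 31.2, 30.6 and 31.3 FPKM with vehicle, 34.8, 36.6 and 31.8 with NPCT and 29.7, 28.2 and 28.6 with PCT. As for Slc17a7, all NPCT libraries were above and all PCT libraries below the vehicle libraries, NPCT replicate 3 by a small margin. NPCT against PCT gave a log2 fold change of 0.25 ± 0.06 (adjusted p = 0.0295 by limma, range over the alternatives 0.00693 to 0.0913). Against vehicle it was 0.15 ± 0.06 with NPCT and -0.11 ± 0.06 with PCT (adjusted p = 0.160 and 0.410). Unc13b, which encodes Munc13-2, had a mean of 4.65 FPKM, and its libraries overlapped in all groups.

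The scaffold genes of the active zone were lower in level, and 0 of them passed on the adjusted p against vehicle. Pclo, which encodes the very large scaffold protein Piccolo, stood at 12.5, 12.4 and 13.8 FPKM with vehicle, 10.5, 10.8 and 7.39 with NPCT and 13.0, 10.7 and 8.72 with PCT. NPCT replicate 3 and PCT replicate 3 were the lowest libraries of Pclo, and all NPCT libraries were below all vehicle libraries, with a log2 fold change of -0.45 ± 0.17 (adjusted p = 0.128 by limma), which became -0.27 without NPCT replicate 3 and -0.23 with the gene length trend removed. Bsn, which encodes the related scaffold Bassoon, had a mean of 23.0 FPKM and log2 fold changes of -0.01 with NPCT and -0.17 with PCT. The value with PCT became -0.04 with the gene length trend removed. Rims1, the RIM that gathers calcium channels and priming factors, stood at 19.0, 18.9 and 19.3 FPKM with vehicle, 18.3, 16.6 and 15.7 with NPCT and 18.5, 15.7 and 14.7 with PCT. Both peptide groups of Rims1 lay below vehicle, with log2 fold changes of -0.18 ± 0.09 and -0.23 ± 0.09 (adjusted p = 0.235 and 0.222 by limma), the first of which became -0.05 with the gene length trend described below removed. Rims2, at 3.47 FPKM, and Erc2, the ELKS scaffold gene at 15.1 FPKM, overlapped vehicle with both peptides.

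Of the endocytosis genes, Dnm1, the neuronal dynamin that cuts vesicles from the membrane, stood at 103, 107 and 109 FPKM with vehicle, 108, 101 and 98.4 with NPCT and 104, 92.2 and 87.2 with PCT. The groups overlapped, and the log2 fold change was -0.06 ± 0.07 with NPCT and -0.18 ± 0.07 with PCT (adjusted p = 0.615 and 0.226 by limma). Amph encodes amphiphysin, which brings dynamin to curved membrane, and had the widest spread of the 36 genes. Amph stood at 9.83, 11.3 and 8.73 FPKM with vehicle, 16.8, 13.7 and 23.4 with NPCT and 15.5, 7.60 and 14.0 with PCT. All NPCT libraries were above all vehicle libraries, and PCT replicate 2 was the lowest of the 9. The log2 fold change of Amph with NPCT, 0.82 ± 0.27, was the largest of the set but did not pass (adjusted p = 0.0957 by limma, range over the alternatives 0.0301 to 0.238). In a fit of only the vehicle and NPCT libraries it passed both thresholds, at an adjusted p = 0.0301. Sh3gl2, which encodes endophilin A1, stood at 62.1, 63.0 and 68.8 FPKM with vehicle, 58.4, 59.0 and 58.3 with NPCT and 66.0, 64.3 and 57.6 with PCT, the NPCT libraries being below all vehicle libraries (log2 fold change -0.14 ± 0.07, adjusted p = 0.195 by limma).

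The log2 fold changes of the 36 genes went with gene length, as those of all genes did. Gene length here is the length to which FPKM were scaled, not the span of the gene on the chromosome. Across the 36 genes Spearman's rho between length and log2 fold change was -0.434 with NPCT and -0.342 with PCT, and across all 15958 genes -0.224 and -0.139; genes share the same libraries and are not independent, so these are descriptions. The median length was 2640 bases for the 36 genes and 2136 for all genes. The median log2 fold change with NPCT in the bin of the longest genes, of median length 7678 bases, was -0.16. When the trend with length was removed from each library before the fit, Pclo (16596 bases) went from -0.45 to -0.23 with NPCT (adjusted p = 0.225 by limma), Bsn (16047 bases) from -0.01 to 0.21, and Unc13a (5193 bases) from 0.15 to 0.26 (adjusted p = 0.0506). The values of Syt4 and Slc17a7 moved less, to -0.44 and 0.33. Other genes moved too: with NPCT, Rims1 (5870 bases) went from -0.18 to -0.05 (adjusted p = 0.705), Nsf from -0.16 to -0.09 (adjusted p = 0.270), Syp (1403 bases) from 0.15 to 0.08 and Syngr1 (1144 bases) from 0.16 to 0.07. The log2 fold change moved by over 1.5 times or turned sign for 17 of the 36 genes with NPCT (4 turned), for 16 with PCT (2 turned) and for 12 between the peptides (2 turned). Syt4 with NPCT against vehicle stayed just under an adjusted p of 0.05 with the length trend removed (0.0494 by limma), beside 1.16% of all genes in that fit. All 6 genes that differed between the peptides also stayed at or under 0.05, a share near the 17.3% of all genes that passed there.

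**Figure D4:**
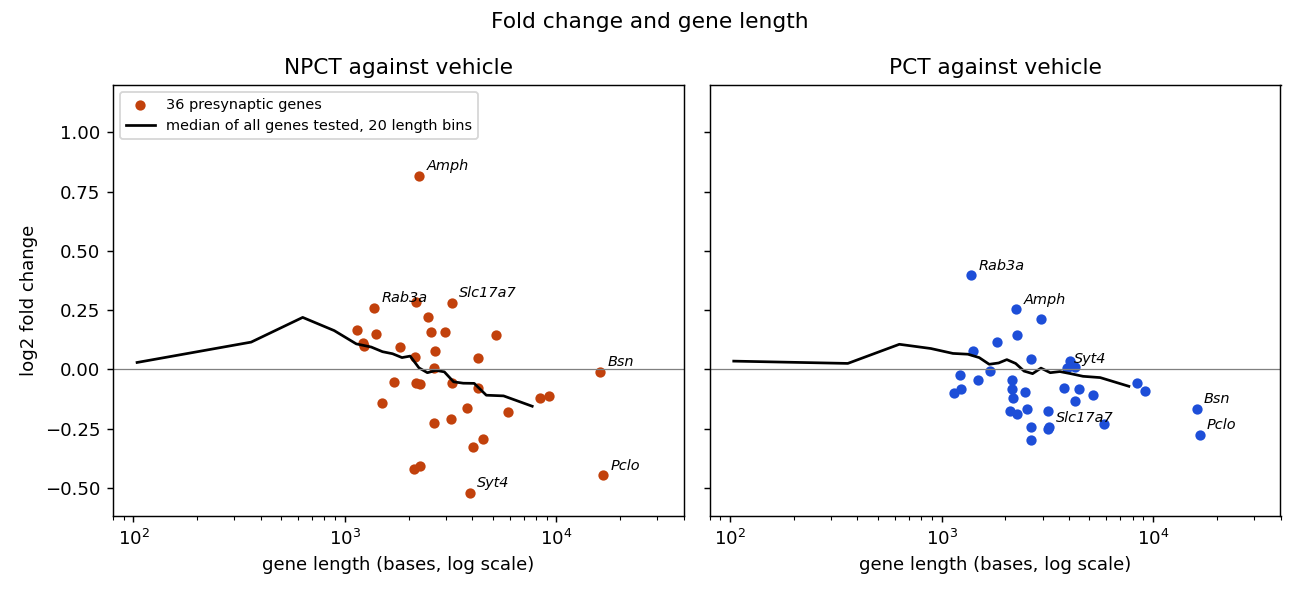
Log2 fold change (y axis) of the 36 genes (points) against gene length in bases (x axis, log scale), with NPCT (left, orange) and PCT (right, blue) against vehicle; the black line joins the medians of all genes tested in 20 bins of equal size by length. Gene length is the length to which FPKM were scaled, not the span on the chromosome. With NPCT the line ends at -0.16 for the longest genes by this measure, by which Pclo and Bsn are the 2 longest of the 36.

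The rest of the presynaptic machinery was read from a second list of 87 genes, other synaptotagmins, Rabs, syntaxins, synucleins, tethering and endocytosis factors among them, of which 80 were tested. With NPCT against vehicle 0 of 80 passed both thresholds by limma and 2 by limma-voom, near the 2.22% of all genes that limma-voom called, and 38 reached an unadjusted p below 0.05, 13 higher and 25 lower, against 29.3% of all genes (14.4% higher and 14.9% lower). With PCT against vehicle 0 passed by either tool, and 10 reached an unadjusted p below 0.05, 2 higher and 8 lower, against 18.9% of all genes. NPCT against PCT gave 4 of 80, Sncg and Syngr2 higher and Rab27b and Rab3c lower with NPCT, which as a share is no more than the 5.76% of all genes called there. An unadjusted p below 0.05 was reached by 36, 20 higher and 16 lower, against 33.1% of all genes. Sncg, gamma-synuclein, stood at 1.78, 2.09 and 2.24 FPKM with vehicle, 3.71, 3.17 and 6.05 with NPCT and 0.525, 0.731 and 1.18 with PCT, and the 3 groups did not overlap. Its log2 fold change with NPCT against PCT was 2.28 ± 0.31 (adjusted p = 0.00337 by limma).

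Syngr2, a synaptogyrin found in many cell types beside neurons, had a log2 fold change of 0.83 ± 0.20 with NPCT against PCT (adjusted p = 0.0277 by limma). Rab27b and Rab3c, GTPases of secretory vesicles, had -0.86 ± 0.15 and -0.63 ± 0.12 (adjusted p = 0.00901 and 0.0135). Rab3c stood at 21.2, 23.0 and 21.7 FPKM with vehicle, 17.8, 19.9 and 13.8 with NPCT and 27.4, 27.3 and 24.3 with PCT, the NPCT libraries being below and the PCT libraries above all vehicle libraries. Pacsin1, an endocytic adaptor that binds dynamin, had the smallest p of the 80 with NPCT against vehicle, at 12.7, 14.1 and 14.6 FPKM with vehicle and 22.6, 23.7 and 24.3 with NPCT, a log2 fold change of 0.77 ± 0.15 (adjusted p = 0.0509 by limma). Ston2, which sorts synaptotagmin during endocytosis, had the smallest with PCT, at 11.8, 10.3 and 11.9 FPKM with vehicle and 8.36, 8.50 and 7.05 with PCT, a log2 fold change of -0.50 ± 0.11 (adjusted p = 0.0426), which is under the fold threshold.

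Summed levels of astrocyte and microglia markers were lower in all PCT libraries than in all vehicle libraries, those of oligodendrocyte lineage markers were higher in all NPCT libraries, and those of neuronal, fibroblast and vascular, and proliferation markers overlapped vehicle with both peptides. The 13 neuronal markers were all detected, with a summed level of 3187 to 3363 FPKM with vehicle, 3077 to 3202 with NPCT and 3289 to 3474 with PCT, and 0 of 13 passed both thresholds by limma with either peptide against vehicle, where 5 were lower at an unadjusted p below 0.05 with NPCT, and 1 lower and 1 higher with PCT. The 10 astrocyte markers summed to 4286 to 4572 FPKM with vehicle, 4457 to 4666 with NPCT and 3492 to 3597 with PCT, and 5 of 10 were called lower with PCT (Aqp4, Aldh1l1, Slc1a2, S100b and Aldoc), while Gfap, at 734 to 828 FPKM with vehicle and 899 to 931 with PCT, was higher at an unadjusted p below 0.05 and was not called. Of 10 microglia markers 9 were found, summing to 23.4 to 32.0 FPKM with vehicle, 30.5 to 132.2 with NPCT, the highest being NPCT replicate 3, and 11.1 to 14.5 with PCT, where 3 were called lower (Aif1, Cx3cr1 and Csf1r). The 10 oligodendrocyte lineage markers summed to 474.6 to 491.1 FPKM with vehicle, 517.5 to 552.5 with NPCT, where 5 of 10 were higher at an unadjusted p below 0.05 and 0 passed both thresholds by limma, and 430.5 to 448.7 with PCT. The lower sum with PCT came from Olig1 (259 to 279 FPKM with vehicle, 185 to 195 with PCT): the other 9 markers summed to 212.5 to 216.1 FPKM with vehicle, 244.2 to 281.2 with NPCT and 235.5 to 256.3 with PCT, and with PCT 2 of the 10 were higher and 1 lower at an unadjusted p below 0.05, with a list median of 0.19 on the log2 scale. The 9 fibroblast and vascular markers found summed to 15.3 to 26.8 FPKM in all groups, Cldn5 being at 0 in every library and Col3a1 called higher with PCT, and the 10 proliferation markers to 78.3 to 105.5 FPKM. In the comparison of NPCT with PCT, which carried the 6 differences above, 6 of 9 microglia markers and 3 of 10 astrocyte markers (Aldh1l1, S100b and Aldoc) were called higher with NPCT, and the microglia list had a median of 2.13 on the log2 scale. There Aurkb of the proliferation markers was called higher too, and Elavl4 of the neuronal and Col3a1 of the fibroblast markers were called lower. The summed neuronal markers were lower in all NPCT libraries (3077 to 3202 FPKM) than in all PCT libraries (3289 to 3474). At limma's unadjusted p below 0.05, 2 neuronal markers were higher and 4 lower with NPCT. Of the oligodendrocyte lineage markers 0 passed both thresholds by limma, with 2 higher and 1 lower at an unadjusted p below 0.05. Mitochondrially encoded genes took 5.18 to 5.84% of fragments with vehicle, 3.70 to 4.17% with NPCT and 4.11 to 6.21% with PCT. The part of cell composition and of these shares in the differences above was not tested. In bulk RNA of such cultures, fewer neurons and less RNA of a gene per neuron cannot be told apart.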

How the data were processed

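RNA of rat primary hippocampal neurons was measured by RNA-seq in 9 libraries, 3 per group as labelled (Control, called vehicle here, NPCT and PCT). The authors aligned clean reads with HISAT2 2.0.5, counted them on genes with featureCounts 1.5.0-p3, converted the counts to FPKM and tested the counts with DESeq2 1.20.0. The submitters' processing notes name Rnor_6.0. The deposited table holds FPKM of 34092 genes. Multiplied by gene length and the library's scaling total, 100% of the values were whole numbers of fragments (within 0.05 of a fragment), and median ratio scaling factors were 1 in every library, so the deposited FPKM already carried such a scaling.

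Since FPKM are not counts, limma 3.58.1 (R 4.3.3, trended prior) was fitted to log2(FPKM + 0.1) over all 9 libraries for the 15958 genes whose FPKM averaged 0.5 or more, with Benjamini-Hochberg adjustment over all of them. Fold changes are on that scale. Each library's depth, 13573056 to 17211642 fragments, limits the precision of low genes. With 3 libraries per group an exact permutation test could not give a two-sided p under 0.1, so none was run.

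Full statistics were given to the gene with the highest mean FPKM in each role group, to the gene with the smallest p in each comparison there, and to any gene called; Slc17a6, Syt7, Syt1, Syn1, Stx1a, Nsf, Rims1 and Sh3gl2 were added after their values were seen. Of the second list, the gene with the smallest p per comparison and the genes called were named. The genes, lists and roles were chosen with earlier results of these data known. Replicate numbers were not used as pairs in the main fit. Pseudocounts, filters, scalings, the samples in the fit, a replicate block, gene length, limma-voom on the recovered fragments and left-out libraries were tried as alternatives. Promoters came from RefSeq (GRCr8), which is not the build of the table.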

Additional observations from a re-analysis of the deposited data

Results flagged for a closer look

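In 6 of the 36 genes the effects of NPCT and of PCT against the shared vehicle libraries differed by limma's direct contrast (adjusted p threshold 0.05), a share near the 16.3% of all genes that did so. The difference, as the log2 fold change of NPCT minus that of PCT, was 0.53 for Slc17a7 (0.5252), the vesicular glutamate transporter VGLUT1, -0.53 for Syt4 (-0.5268), -0.56 for Syn3 (-0.5556), 0.25 for Unc13a (0.2532), -0.36 for Slc17a6 (-0.3607), the transporter VGLUT2, and 0.33 for Syt7 (0.3283). Higher levels with NPCT than with PCT held in all 3 libraries against all 3 for Slc17a7, Unc13a and Syt7, and lower levels in all 3 against all 3 for Syt4, Syn3 and Slc17a6. Of all genes 15.4% lay wholly above and 18.0% wholly below. The 6 genes were picked by the contrast of these same libraries, so their separation is no further evidence. Over the alternatives run, the adjusted p stayed at or under 0.05 for Slc17a7 (0.000616 to 0.0241) and Syt4 (0.000437 to 0.0386), and went above it in at least 1 alternative for Syn3, Unc13a, Slc17a6 and Syt7, whose highest values were 0.0662, 0.0913, 0.102 and 0.156.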

How the results depend on the processing

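With NPCT against vehicle, the count of the 36 genes past both thresholds was 0, and 1 under quantile normalization (Syt4, beside 1.18% of all genes) and 1 in a fit of only the 2 groups compared (Amph, beside 3.63%). On the adjusted p alone the count was 1, and became 3 at a mean FPKM of at least 1 (beside 5.05% of all genes in that fit), 0 without a filter (0.0468%), 12 with only the 2 groups (18.8%), 5 by limma-voom (9.49%) and 0 with scaling to total fragments (0%). Leaving out libraries gave 0 to 8, the highest without PCT replicate 3 (19.3%), so the calls on all genes moved with the same settings. At an unadjusted p below 0.05 leave-one-out gave 10 to 18, beside 20.7 to 34.5% of all genes. Of the second list 0 passed both thresholds, and 2 at a mean FPKM of at least 1 (1.43% of all genes), 2 under quantile normalization (1.18%), 4 with only the 2 groups (3.63%), 2 by limma-voom (2.22%) and 0 to 3 on leaving out libraries (3 without PCT replicate 3, beside 3.52%, and 2 without PCT replicate 1, beside 1.38%). The median log2 fold change of the 36 genes, -0.03, became 0.029 with the gene length trend removed and -0.048 to 0.041 on leaving out libraries, the highest without vehicle replicate 3. With PCT against vehicle, the count on the adjusted p alone was 0, and 1 under quantile normalization (3.69% of all genes), 1 by limma-voom (4.93%) and 0 to 3 on leaving out libraries, the highest without PCT replicate 1 (4.15%). The count at an unadjusted p below 0.05 went from 7 to 4 with the length trend removed (19.1% of all genes), and 3 to 11 on leaving out libraries (3 without vehicle replicate 3, beside 15.2%, 4 without NPCT replicate 2, beside 18%, and 11 without PCT replicate 1, beside 19.9%). Of the second list, 1 was called with the length trend removed (2.24%), and 0 to 1 on leaving out libraries (1 without PCT replicate 3, beside 2.14%, or NPCT replicate 3, beside 2.49%). With NPCT against PCT, leaving out libraries gave 0 to 2 calls (Syt4 and Syn3 without PCT replicate 3, beside 10.2% of all genes, and Slc17a7 and Syn3 without NPCT replicate 2, beside 4.29%), 2 to 12 on the adjusted p alone (12 without PCT replicate 3, beside 29.1%, and 2 without PCT replicate 1 or 2 or NPCT replicate 1, beside 6.5%, 6.46% and 6.24%), 6 to 14 at an unadjusted p below 0.05 (6 without NPCT replicate 1, beside 26.8%, 7 without PCT replicate 2, beside 25.7%, and 14 without PCT replicate 3, beside 41.2%) and 2 to 8 of the second list, whose count was 4 (2 without NPCT replicate 3, beside 3.95%, and 8 without PCT replicate 3, beside 10.2%). A fit of only NPCT and PCT libraries gave 2 on the adjusted p alone (4.78%) and 2 of the second list (2.84%). Medians ranged from -0.12 to -0.051 with PCT and 0.0095 to 0.086 between peptides on leaving out libraries. Pseudocounts changed none of these counts by over 1.5 times, and FPKM without rescaling gave the same values, the scaling factors being 1. Some log2 fold changes turned sign. Syt11 went to 0.011 with NPCT without the length trend, and to -0.015 between peptides under quantile normalization. Syt4 with PCT went to -0.059 under quantile normalization and ranged from -0.065 to 0.11 on leaving out libraries (-0.0088 without vehicle replicate 2, -0.025 without PCT replicate 2). Cplx2 with PCT ranged from -0.22 to 0.039 and Vamp2 between peptides from -0.022 to 0.15, both turning without PCT replicate 2, and Pclo between peptides from -0.31 to 0.0018, turning without NPCT replicate 3. Stx1a with PCT ranged from -0.19 to 0.076 on leaving out libraries. The cause was not tested. Scaling to total fragments, and the count on the adjusted p alone, were chosen after seeing the data.

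Deviations of same-numbered libraries correlated at -0.0878 to 0.165 over 10256 genes, and those of differently numbered libraries at -0.117 to 0.133. With 3 libraries per group these values cannot decide whether the numbers pair the libraries. With the number as a replicate block, 5 of the 36 genes passed the adjusted p alone with NPCT against vehicle, beside 7.74% of all genes, 4 with the length trend also removed, beside 3.67%, and 3 and 2 genes of the second list passed both thresholds, beside 2% and 1.18% of all genes. With PCT against vehicle the block gave 1 gene of the second list (2.02% of all genes), and 1 with the length trend removed (1.96%). The block with the length trend removed gave a median of 0.029 with NPCT and turned Syt11 to 0.011.

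Depth limited Vamp1, Sv2c, Doc2b and Amph the most, with a lowest count of 166 to 243 fragments in a library.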

Other observations

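The gene missing from the list by symbol, Sv2b, encodes the third SV2 glycoprotein. A row named AC126641.1 (ENSRNOG00000011160, Rnor_6.0 chr1:136664204-136842247, biotype processed transcript) carries the description of synaptic vesicle glycoprotein 2b in the table, was found after the list had been matched and was not counted. It stood at 23.2, 24.6 and 26.6 FPKM with vehicle, 21.1, 20.7 and 24.1 with NPCT and 19.7, 17.4 and 17.9 with PCT. All PCT libraries were below all vehicle libraries, and the NPCT libraries overlapped vehicle. The log2 fold change was -0.43 ± 0.08 with PCT (adjusted p = 0.0271 by limma), which is under the fold threshold, and -0.17 ± 0.08 with NPCT (adjusted p = 0.209).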
